A study of Mus musculus with 3 samples.

Results

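Calprotectin and neutrophil granule protein genes were followed across lungs of 3 mice aged 16 weeks, each hybridised to 1 Affymetrix array. The genes were the probe sets listed as S100a8, S100a9, Ngp, Camp, Ltf or Lcn2 in any of the authors' deposited comparison tables. All 6 symbols were found there, with 1 probe set each, among 4310 listed of 45101 on the array. A probe set was listed only if it was past 2-fold in a deposited comparison, so each of the 6 had to differ somewhere.

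The depleted lung came from a mouse of the genotype KA/KA-Lori-Ikkα after a treatment to deplete macrophages, and was described as somewhat inflamed without an observed tumour. The tumour lung came from a mouse of the same genotype and was a mixture of squamous cell carcinoma and neighbouring tissue. The wild type lung was normal tissue. The protein Ikkα, encoded by Chuk, is a kinase that acts in NF-kB signalling, and both mutant lungs carried the same alleles. The depleting agent, its dose and the elements of the genotype name are not given in the sources used here. The comparison of depleted with tumour lung therefore set a treated lung without a tumour against an untreated one with a tumour, and the treatment and the tumour cannot be told apart. With 1 array per group no value has an error and no test was made.

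Neutrophils store antimicrobial proteins in granules that are filled while the cells mature in the bone marrow. S100a8 and S100a9 encode the subunits of calprotectin, a metal-binding heterodimer that makes up much of the cytosol of mature neutrophils. Ngp, Camp, Ltf and Lcn2 encode proteins of the later-formed granules, and in mice their transcription in maturing granulocytes depends on the factor C/EBP epsilon. Several of them are also made elsewhere: S100a8 and S100a9 in stressed squamous epithelium, Lcn2 in inflamed airway epithelium and Ltf in glands.

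S100a8 and S100a9 lie next to each other on chromosome 3 with no protein-coding gene between them. Camp, Ngp and Ltf lie on chromosome 9, where 8 protein-coding genes separate Camp from Ngp and 20 separate Ngp from Ltf. Lcn2 lies on chromosome 2. The promoters of 4 of these genes are shown because they stand for the patterns seen below. These are a graded increase (S100a8), an intensity raised mainly on the depleted array (Ngp and Camp) and a decrease (Ltf). The promoters run from 250 bases before to 50 after the transcription start, 5′ to 3′ on the gene's strand, from RefSeq (GRCm38.p6). Capitals mark matches to the C/EBP motif TTNNGNAA on either strand. The positions are chr3:90668821-90669120 on the plus strand for S100a8, chr9:110419558-110419857 on the plus strand for Ngp, chr9:109849407-109849706 on the minus strand for Camp and chr9:111019042-111019341 on the plus strand for Ltf.
S100a8: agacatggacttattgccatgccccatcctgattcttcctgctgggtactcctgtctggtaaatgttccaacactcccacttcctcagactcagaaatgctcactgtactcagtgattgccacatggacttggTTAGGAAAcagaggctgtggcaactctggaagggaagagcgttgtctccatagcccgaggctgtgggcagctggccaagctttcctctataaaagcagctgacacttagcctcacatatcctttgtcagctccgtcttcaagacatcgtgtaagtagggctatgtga
Ngp: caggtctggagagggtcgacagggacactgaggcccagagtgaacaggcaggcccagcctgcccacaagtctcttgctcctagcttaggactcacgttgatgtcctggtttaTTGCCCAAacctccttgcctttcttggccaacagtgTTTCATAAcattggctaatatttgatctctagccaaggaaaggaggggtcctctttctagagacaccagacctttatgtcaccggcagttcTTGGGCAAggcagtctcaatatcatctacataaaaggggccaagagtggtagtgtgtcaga
Camp: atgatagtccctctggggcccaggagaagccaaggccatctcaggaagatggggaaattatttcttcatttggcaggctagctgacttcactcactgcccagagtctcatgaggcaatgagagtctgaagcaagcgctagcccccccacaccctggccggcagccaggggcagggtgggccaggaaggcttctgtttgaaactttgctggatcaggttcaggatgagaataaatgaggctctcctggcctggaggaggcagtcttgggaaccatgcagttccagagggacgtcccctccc
Ltf: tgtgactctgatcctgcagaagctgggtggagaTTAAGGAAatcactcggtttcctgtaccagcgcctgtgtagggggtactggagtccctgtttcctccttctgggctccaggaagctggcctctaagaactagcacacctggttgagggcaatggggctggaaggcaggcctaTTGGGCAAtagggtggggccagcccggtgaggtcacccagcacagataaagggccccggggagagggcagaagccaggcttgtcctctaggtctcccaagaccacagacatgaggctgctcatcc

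Of all 32851 promoters in the same table, 40.7% held this motif, so its presence is common. Ngp had 3 matches, starting 138, 102 and 11 bases before the start, Ltf had 2, at 217 and 75 bases, and S100a8 had 1, at 117 bases. Camp had none in this window. Among the genes whose promoters are not shown, S100a9 had 2 matches and Lcn2 had 1. The part of these matches in the levels of the genes was not tested. A TATAAA sequence on the gene's strand began 30 bases before the start of S100a8 and was in 8.32% of all promoters.

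Both calprotectin genes were highest in the depleted lung, intermediate in the tumour lung and lowest in the wild type lung. S100a8 had an intensity of 37993.5 in the depleted lung, 16086.3 in the tumour lung and 2272 in the wild type lung. It was thus 7.08-fold higher in tumour than in wild type lung (log2 2.82), 16.7-fold higher in depleted than in wild type lung (log2 4.06) and 2.36-fold higher in depleted than in tumour lung (log2 1.24). The name of its probe set ends in _s_at, which marks probes that may match more than 1 transcript.

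S100a9, the partner subunit, had an intensity of 29865.6 in the depleted lung, 14351.8 in the tumour lung and 1614 in the wild type lung. The difference from wild type was 8.89-fold for tumour lung (log2 3.15) and 18.5-fold for depleted lung (log2 4.21). Depleted lung was 2.08-fold above tumour lung (log2 1.06), just past the 2-fold threshold. This difference fell under 2-fold with quantile normalization (log2 0.94) and with scaling to the hybridization controls (log2 0.90). The subunits followed each other closely, with a root mean square difference of 0.13 between their centred log2 values over the 3 arrays.

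Lcn2, a lipocalin that binds bacterial siderophores, differed from calprotectin in being brightest on the tumour array. Its intensity was 18054.6 in the depleted lung, 25803.4 in the tumour lung and 1707 in the wild type lung. It was 15.1-fold higher in tumour than in wild type lung (log2 3.92) and 10.6-fold higher in depleted than in wild type lung (log2 3.40). The mutant lungs were within 2-fold of each other, with a log2 difference of -0.52 for depleted against tumour lung.

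**Figure D1:**
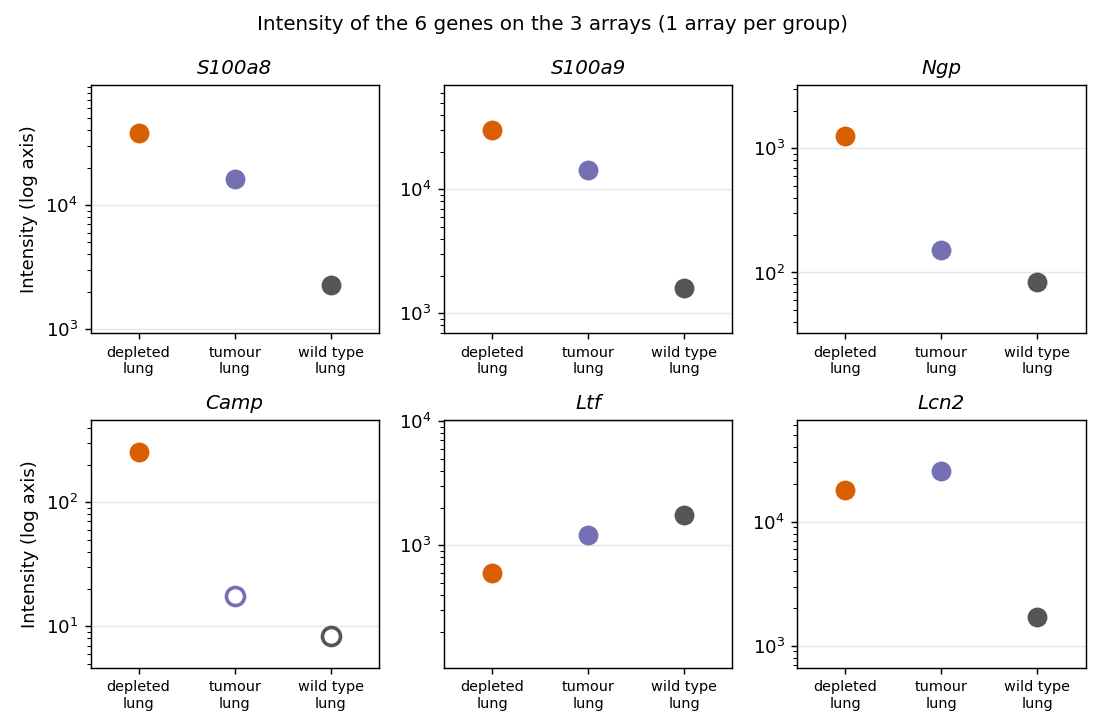
Intensity of each gene (log axis, each panel spanning the same number of decades) on the arrays of depleted, tumour and wild type lung, with 1 point per array. Open points lie below the 25th percentile of their array. S100a8, S100a9, Ngp and Camp are highest in depleted lung, Lcn2 in tumour lung and Ltf in wild type lung.

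The intensities of the granule genes Ngp and Camp were raised mainly on the depleted array. Ngp, which encodes a cathelicidin-related granule protein, had an intensity of 1266 in the depleted lung, 151 in the tumour lung and 83.4 in the wild type lung. Depleted lung was 8.40-fold above tumour lung (log2 3.07) and 15.2-fold above wild type lung (log2 3.92). Tumour lung was within 2-fold of wild type lung, at a log2 difference of 0.85 that turned to -0.15 when the hybridization controls were used for scaling.

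Camp, the single mouse cathelicidin gene, encodes the precursor of an antimicrobial peptide. It had an intensity of 256 in the depleted lung, 17.7 in the tumour lung and 8.36 in the wild type lung. The depleted value lay between the median of its array, 127, and its 75th percentile, 545. The tumour and wild type values were below the 25th percentile of their arrays, so the difference between them has no interpretable fold. Against that percentile, depleted lung was at least 7.21-fold above tumour lung and at least 7.37-fold above wild type lung. Camp entered both comparisons only through the depleted array.

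Ltf, encoding the iron-binding protein lactoferrin, went against the others. Its intensity was 601 in the depleted lung, 1201 in the tumour lung and 1761 in the wild type lung. It was 2.93-fold lower in depleted than in wild type lung (log2 -1.55) and 2.00-fold lower in depleted than in tumour lung, at the threshold itself. Tumour lung differed from wild type lung by a log2 of -0.55, under 2-fold, and by -1.55 with scaling to the controls. The order of the 3 lungs was thus the reverse of that of S100a8 and S100a9.

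A gene or probe set was compared where its brighter array was no dimmer than the 50th percentile of that array. In tumour against wild type lung, 3 of the 6 genes were past 2-fold upwards (S100a8, S100a9 and Lcn2), 2 were under 2-fold and Camp was too dim to be compared. Of all probe sets compared there, 9.25% were past 2-fold upwards and 10.4% downwards. In depleted against tumour lung 4 were higher, 1 was lower and 1 was under 2-fold, beside 7.68% higher and 7.26% lower among all probe sets. In depleted against wild type lung 5 were higher and 1 was lower, where the shares of all probe sets were 6.24% and 6.34%. The genes could be named only because they were listed as past 2-fold, so nothing more is read from these counts. The place of each difference among all compared probe sets is given as a description. For depleted against wild type lung, 99.8% of probe sets had a lower difference than S100a8, 99.6% a lower one than Lcn2, and 2.01% a lower one than Ltf. For depleted against tumour lung the shares were 93.1% for S100a9, 99.6% for Ngp and 7.25% for Ltf. For tumour against wild type lung they were 98.2% for S100a8, 99.1% for Lcn2 and 88.6% for Ngp.

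**Figure D2:**
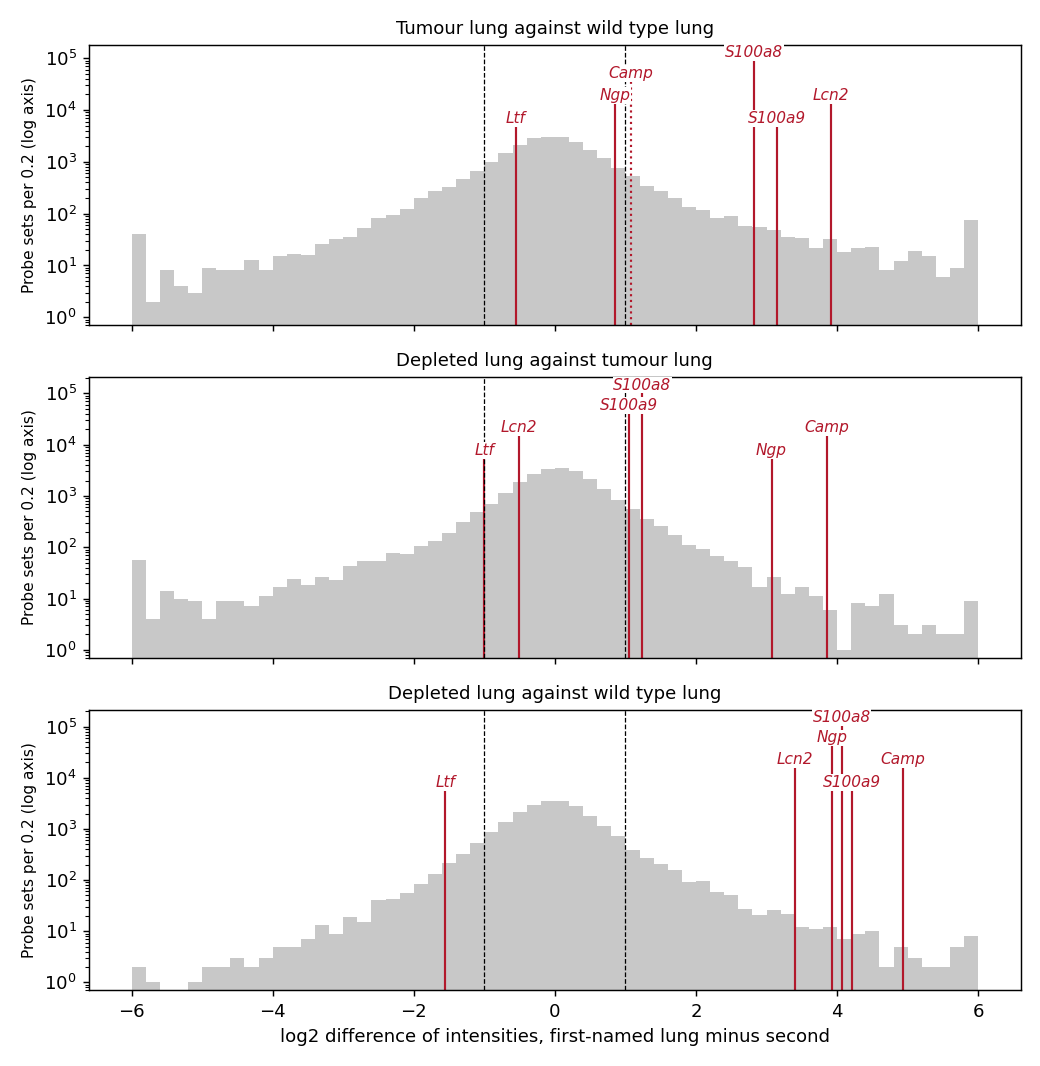
Distribution of log2 differences over all probe sets that passed the level filter (grey bars of 0.2, counts on a log axis, values beyond -6 or 6 in the end bars), with the 6 genes as red lines. A dotted line marks Camp where it was too dim to be compared, and dashed lines mark 2-fold. Ltf lies left of 0 in all 3 comparisons. Ngp and Camp lie near the right dashed line for tumour against wild type lung and far to its right in the comparisons of depleted lung.

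The hybridization controls, spiked into each sample at fixed amounts, were higher on the mutant arrays than on the wild type array. The median log2 difference over 18 control probe sets was 1.00 for tumour against wild type lung, 1.18 for depleted against wild type lung and 0.15 for depleted against tumour lung. Removing it shifts every gene down alike and puts the median of all probe sets at -1.04 and -1.20 in the comparisons with wild type lung. On that scale the differences from wild type in depleted lung were 2.88 for S100a8, 3.03 for S100a9, 2.74 for Ngp, 3.75 for Camp (with its dim wild type value as measured), 2.22 for Lcn2 and -2.74 for Ltf. The distance of each gene from the median of all probe sets stayed as it was. The median intensity was 127 on the depleted array, 124 on the tumour array and 128 on the wild type array. The ratio of 3′ to 5′ signal for the Gapdh control was 0.97 in depleted, 0.79 in tumour and 1.06 in wild type lung. For the beta-actin control it was 1.41 in depleted, 1.33 in tumour and 1.30 in wild type lung.

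The authors' deposited tables give ratios that went the same way as the intensities for all 18 combinations of gene and comparison, but with other sizes for Ngp and Camp. For S100a8 in depleted against wild type lung the authors' deposited table has 14.1-fold, and for S100a9 16.1-fold. For Ngp it has 5.62-fold, and in tumour against wild type lung 1.01-fold. For Camp the authors' deposited tables have 2.61-fold in depleted against wild type lung and 1.73-fold in depleted against tumour lung, turned over from the ratio of tumour to depleted lung. The 1.73-fold difference is under 2-fold, and both are far below the bounds from the intensities. For Ltf the authors' deposited tables have 2.72-fold lower in depleted than in wild type lung. Of the 18 values, 5 differed by over 1.5 times between the sources, all of them for Ngp or Camp.

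**Figure D3:**
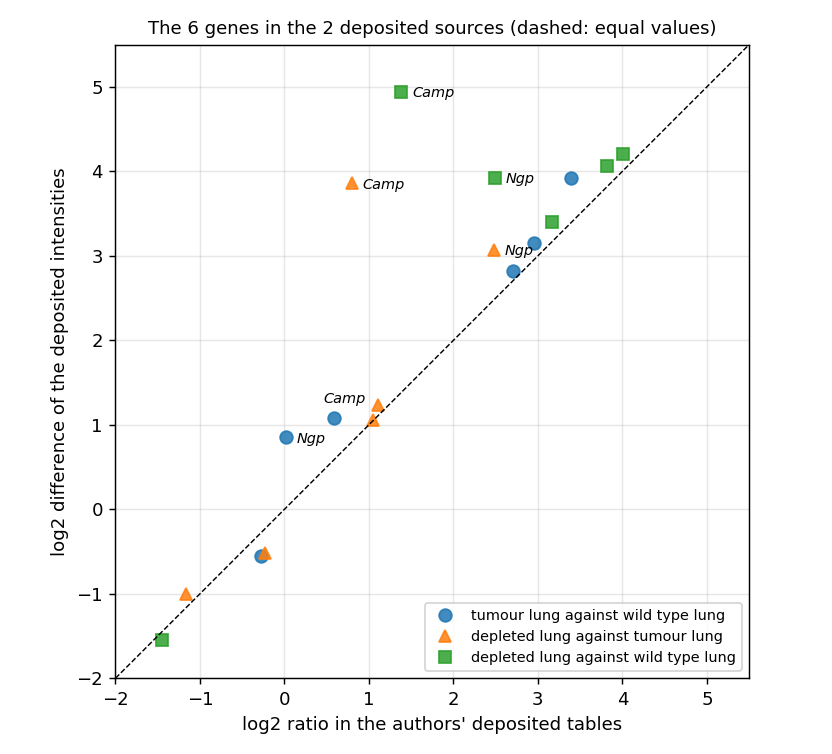
Log2 differences of the deposited intensities (vertical) against log2 ratios of the authors' deposited tables (horizontal) for the 6 genes, with a symbol for each comparison and a dashed line of equality. Points for S100a8, S100a9 and Ltf lie near the line, and those of Lcn2 are up to 0.52 from it. Those of Camp and Ngp lie above it in all 3 comparisons, furthest for Camp in the comparisons of depleted lung.

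The 6 genes were then set beside 58 neutrophil genes on 3 lists, which include them. Of these, 39 were named in the deposited tables. In depleted against wild type lung, 33 of 38 compared were past 2-fold upwards and only Ltf (1 of 38) downwards, and the median log2 difference was 2.34. Among all named genes compared, 24.6% were higher and 21.1% lower (median -0.067). In depleted against tumour lung 21 of 39 were higher and 7 lower (median 1.15), where 29.5% of named genes were higher and 27.5% lower (median 0.26). In tumour against wild type lung 23 of 36 were higher and 4 lower (median 1.73), against 37.6% and 38.2% of named genes (median -0.11). With the control difference removed, 21 genes were higher and 2 lower in depleted than in wild type lung, and 16 were higher and 9 lower in tumour than in wild type lung. Without the 6 genes, the median for depleted against wild type lung was 2.17 over 32 genes. The 39 genes could be named only because a deposited comparison had them past 2-fold. List genes absent from the deposited tables could not be named, so their probe sets on the array were not compared here. Less RNA per cell and fewer cells of a type cannot be told apart in whole lung.

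Which array was brightest varied among the list genes as it did among the 6. The depleted array was the brightest for 28 of the 39, the tumour array for 9 and the wild type array for 2, beside 24.5% of all named genes for the depleted array, 38.1% for the tumour array and 37.4% for the wild type array. Among surface and cytoplasmic genes of mature neutrophils, 16 of 21, S100a8 and S100a9 among them, were higher in depleted than in tumour lung and 2 were lower, beside 29.5% and 27.5% of all named genes. Csf3r, the receptor for granulocyte colony-stimulating factor, had an intensity of 1879 in depleted, 845 in tumour and 341 in wild type lung. Cxcr2, the receptor for neutrophil-attracting chemokines, had 325 in depleted, 125 in tumour and 37.5 in wild type lung. Both had the order of S100a8 and S100a9. In the authors' deposited tables the difference of tumour from wild type lung was under 2-fold for both, at 1.53-fold for Csf3r and 1.27-fold for Cxcr2. For the 33 named list genes other than the 6, 18 of 99 values differed by over 1.5 times between the sources and 2 had opposite signs.

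Other list genes were bright in the depleted lung and below wild type in the tumour lung, by under 2-fold for Wfdc21. The formyl peptide receptor gene Fpr1 had 2253 in depleted, 105 in tumour and 592 in wild type lung. Fpr2 had 5556 in depleted, 279 in tumour and 1328 in wild type lung. Ifitm6 had 2176 in depleted, 92.4 in tumour and 371 in wild type lung, a 23.6-fold difference between depleted and tumour lung. Wfdc21, 13.3-fold higher in depleted than in tumour lung, had 4156 in depleted, 312 in tumour and 404 in wild type lung. The lectin receptor gene Clec4e was above wild type in both mutant lungs and had 2728 in depleted, 254 in tumour and 127 in wild type lung.

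The later-formed granule genes, which include Ngp, Camp, Ltf and Lcn2, differed among themselves between the mutant lungs. Of 16 compared in depleted against tumour lung, 3 were at least 2-fold higher, namely Ngp, Camp and Wfdc21, and 5 were lower, beside 29.5% higher and 27.5% lower among all named genes. Their median was 0.26, as was that of all named genes. Of the 3 higher genes, Camp entered only through the depleted array and has 1.73-fold in the authors' deposited tables. In depleted against wild type lung 14 of 16 were higher, beside 24.6% of all named genes. The neutrophil collagenase gene Mmp8 had 1461 in depleted, 830 in tumour and 115 in wild type lung, and Olfm4, a granule glycoprotein gene, had 363 in depleted, 279 in tumour and 32.9 in wild type lung. Both were within 2-fold between the mutant lungs and more than 2-fold above wild type. Of the earlier-formed granule genes 2 of 7 were named. The serine protease gene Prtn3 had 272 in depleted, 101 in tumour and 110 in wild type lung, and the myeloperoxidase gene Mpo had 219 in depleted, 78.0 in tumour and 127 in wild type lung. Both were more than 2-fold above tumour lung in the depleted lung. Their tumour values were below the median of that array, 124, so they entered this comparison only through the depleted array. The authors' deposited tables have 1.94-fold for Mpo there, under 2-fold.

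A further set was higher in the tumour lung than in the depleted lung. Stfa3, a stefin A protease inhibitor gene, had 83.0 in depleted, 3781 in tumour and 5.01 in wild type lung. Asprv1, an aspartic protease of cornified epidermis, had 283 in depleted, 1777 in tumour and 35.4 in wild type lung. Adam8, Itgam, Orm1 and Slpi were 4.74-fold, 3.70-fold, 3.76-fold and 2.13-fold lower in depleted than in tumour lung. Of these Itgam, the integrin chain CD11b, is also expressed by macrophages, and Slpi by epithelium.

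**Figure D4:**
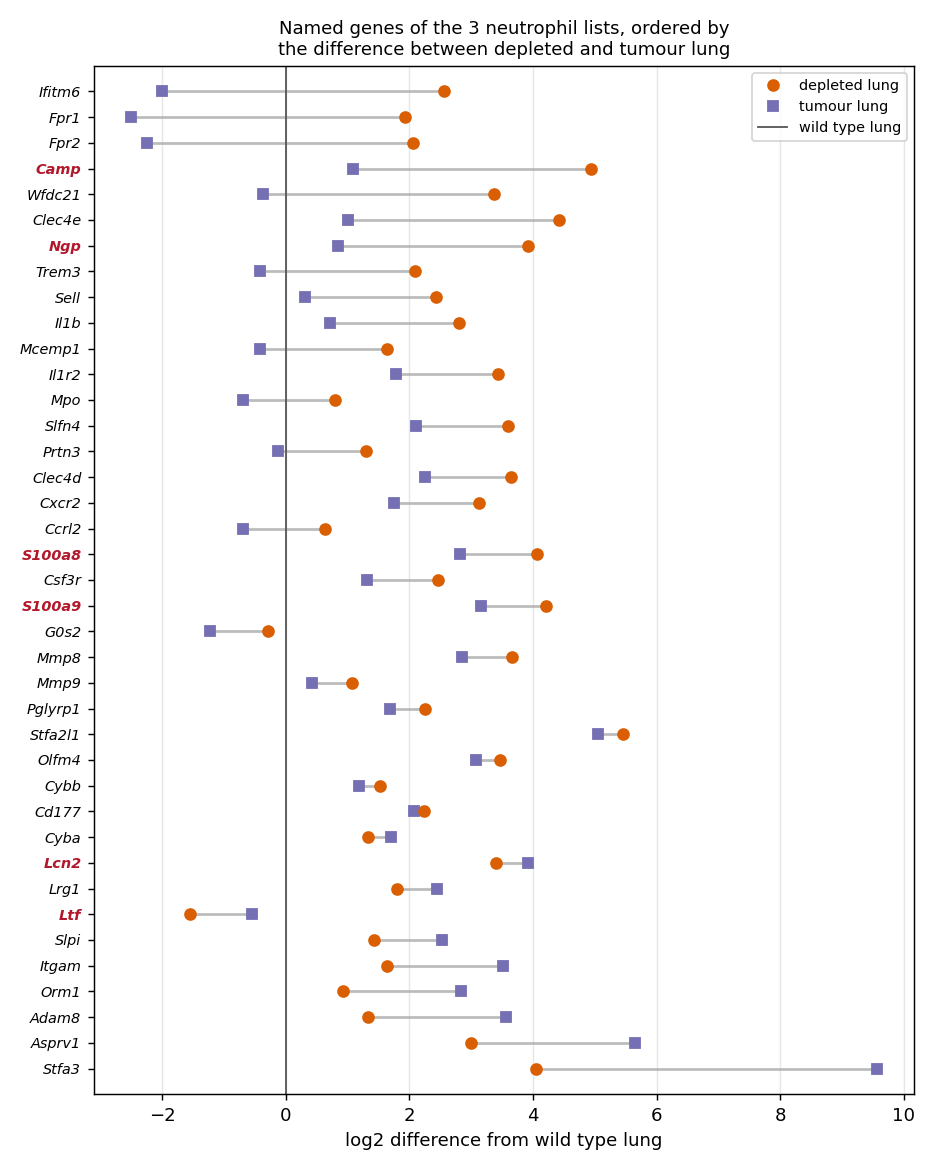
Log2 difference from wild type lung for the 39 named neutrophil list genes in depleted lung (circles) and tumour lung (squares), from the largest depleted-over-tumour difference at the top to the smallest at the bottom. The 6 genes are in red, with Camp and Ngp near the top, S100a8 and S100a9 in the middle and Lcn2 and Ltf among the lower rows. Intensities are used as deposited, so values of dim genes such as Camp and Stfa3 are larger than their bounds.

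Of 10 defining neutrophil markers 7 were named, and none of them was below the 25th percentile of an array. Their summed intensity was 73528 in depleted, 33208 in tumour and 4963 in wild type lung, most of it from S100a8 and S100a9. The other 5 markers, Csf3r, Cxcr2, Mmp8, Mmp9 and Il1r2, summed to 5669 in depleted, 2770 in tumour and 1076 in wild type lung. Genes of some other cell types were summed in the same way. The summed intensity of 19 named squamous epithelium genes of 21 was 871 in depleted, 98858 in tumour and 672 in wild type lung. Of these genes 1 reached the level filter in depleted against wild type lung, Trim29, which had 263 in depleted, 1492 in tumour and 101 in wild type lung and was 2.61-fold higher in depleted than in wild type lung. Krt14 and Sprr1b were below the 25th percentile of the array in both depleted and wild type lung. For 15 of 19 monocyte and macrophage genes the sums were 60070 in depleted, 131454 in tumour and 18356 in wild type lung, and 10 of these 15 were at least 2-fold lower in depleted than in tumour lung and none was higher, beside 27.5% and 29.5% of all named genes. For 10 of 12 T cell genes the sums were 13828 in depleted, 5877 in tumour and 2471 in wild type lung, the order of S100a8. For 6 of 9 club and ciliated cell genes the sums were 49777 in depleted, 14008.5 in tumour and 53036 in wild type lung, which is not the order of Ltf. The part of these cells in the results for the 6 genes was not tested.

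With intensities as deposited, most named factors that attract or sustain neutrophils were past 2-fold above wild type in each mutant lung, but not always the same genes. Il1b was under 2-fold in tumour against wild type lung, and Il6 was too dim to be compared in depleted against wild type lung. Of 17 such genes 11 were named. In depleted against wild type lung 8 of 9 compared were past 2-fold upwards and 1 was under 2-fold (median 2.80), beside 24.6% higher among all named genes. Of these 8, the authors' deposited tables have Csf2 at 1.90-fold and Il1a at 1.86-fold, under 2-fold. Log2 differences were 1.66 for Csf2, 1.72 for Il1a and 1.89 for Alox5ap, beside 1.18 for the hybridization controls. With the control difference removed these would be under 2-fold. In tumour against wild type lung 8 of 11 were higher and 1 lower (median 3.81, or 3.16 with dim values at their bound), beside 37.6% and 38.2%. Il1a, at 1.96, and Alox5ap, at 1.26, would be under 2-fold there with the control difference of 1.00 removed. In depleted against tumour lung 3 were higher, 3 lower and 5 under 2-fold, near the 29.5% higher and 27.5% lower of all named genes. The chemokine gene Cxcl1 had 4649 in depleted, 1254 in tumour and 84.1 in wild type lung, the order of S100a8. Against wild type lung these are 55.3-fold for depleted and 14.9-fold for tumour lung. The authors' deposited tables have smaller differences for Cxcl1, 12.2-fold and 4.76-fold. Il1b, encoding an inflammatory cytokine, had 3260 in depleted, 770 in tumour and 467 in wild type lung. Cxcl5, another neutrophil chemokine gene, had 550 in depleted, 1336 in tumour and 30.3 in wild type lung, the order of Lcn2. The chemokine gene Ccl3 had 1103 in depleted, 750 in tumour and 30.9 in wild type lung.

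Of 8 receptor genes for calprotectin and cathelicidin 6 were named. In depleted against tumour lung 1 was past 2-fold upwards and the other 5 were under 2-fold, beside 29.5% higher and 27.5% lower among all named genes. In tumour against wild type lung 2 were higher and 1 was lower, beside 37.6% and 38.2% of named genes. In depleted against wild type lung 3 were higher and 3 under 2-fold, beside 24.6% of named genes higher. Tlr4, through which calprotectin signals, had 352 in depleted, 605 in tumour and 368 in wild type lung. Ager, encoding the receptor RAGE and abundant in alveolar type I cells, had 8243 in depleted, 7189 in tumour and 12049.7 in wild type lung. Cd14, a co-receptor of Tlr4 on monocytes and neutrophils, had 5345 in depleted, 4565 in tumour and 897 in wild type lung. The gene past 2-fold between the mutant lungs was Fpr2, a formyl peptide receptor gene given above, whose human counterpart binds the human cathelicidin peptide. Of 8 granulocyte transcription factor genes 5 were named. Cebpb had 2155.5 in depleted, 1681 in tumour and 779 in wild type lung, and Spi1, encoding PU.1, had 947 in depleted, 714 in tumour and 323 in wild type lung. Gfi1 had 157 in depleted, 146 in tumour and 51.1 in wild type lung. As deposited, these factors were more than 2-fold higher in both mutant lungs than in wild type and within 2-fold between them. Log2 differences from wild type in tumour lung were 1.11 for Cebpb, 1.14 for Spi1 and 1.51 for Gfi1, beside 1.00 for the hybridization controls. In depleted lung they were 1.47, 1.55 and 1.62, beside 1.18 for the controls. With the control difference removed all would be under 2-fold. The authors' deposited tables have 1.96-fold for Cebpb in tumour against wild type lung. Runx1, another factor of the lineage, had 428 in depleted, 1034 in tumour and 458 in wild type lung. Cebpe, the factor that granule genes depend on, was not named and is not analysed here.

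Likeness was measured as the root mean square difference of log2 values over the 3 arrays, each gene centred on its own mean, among 1982 named genes that reached the 75th percentile on at least 1 array. For S100a8 the nearest genes were Tdo2, at 0.056, S100a9, at 0.13, Ccl22, at 0.16, Mmp8, at 0.19, and Clec4d, at 0.24. For S100a9 they were Tdo2, S100a8, Mmp8, Ctla4 and Ccl22, from 0.078 to 0.29. Tdo2, a tryptophan-degrading enzyme gene, had 958 in depleted, 430 in tumour and 55.2 in wild type lung. For Ngp they were Clec4e, Gm8369, Ccl17, Stx3 and Il1b, from 0.21 to 0.50. For Camp they were Clec4e, Ngp, Stx3, Gm8369 and Wfdc21, from 0.22 to 0.72, and these use intensities below the 25th percentile. For Ltf they were Twsg1, Epb41l5, Hs2st1, Errfi1 and Nrn1, from 0.0078 to 0.038, none of them on a neutrophil list. For Lcn2 they were Proz, Igkv15-103, Ch25h, Retnla and Rgs1, from 0.048 to 0.21. With 3 arrays many genes share a pattern by this measure. Among the 6 genes, with Camp left aside for its dim values, S100a8 and S100a9 were the closest pair, and the distance of Ltf from the others was between 2.23 and 2.38.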

How the data were processed

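RNA from 3 mouse lungs was labelled with biotin and hybridised to 1 array each, per the labels' protocols. The deposited value table gives each probe set 1 linear intensity on each array. The submitters' processing notes name Partek; the summary and scaling steps behind the intensities are not stated in them, so both remain unknown. The authors' 3 deposited tables hold the linear ratio of each pair of samples, per the file headers.

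Differences are log2 of the deposited intensities with no further scaling. Of 4310 listed probe sets, 34 controls, 238 without a symbol and 180 with several were left unnamed. Symbols were updated through RefSeq (GRCm38.p6) by accession for 3661, by current symbol for 66 and by older symbol for 42, and 89 kept the file's name, which gave 2944 genes. A gene with several listed probe sets took the brightest by mean. Genes were compared where the brighter of their arrays reached the 50th percentile of its own values, and counted from 2-fold. Where the dimmer of them lay under the 25th percentile, the fold against that percentile is a lower bound. The text names the 6 genes, up to 4 genes per other list by largest difference, any gene of the neutrophil and S100 lists, and the 5 nearest genes to each of the 6. Tlr4, Ager and Hamp were outside this rule and were chosen for their role after their values were seen. Trim29 was also outside it and was named as the squamous gene that reached the level filter in depleted against wild type lung. Csf2, Il1a and Alox5ap were outside it too, and were named because their place past 2-fold depends on source or scaling. The members and lists were chosen with earlier results of these data known. The call rule was tested on simulated data. Alternatives covered scaling, the choice of probe set, dim values, level filter, threshold and the deposited ratios. Software was pandas 2.3.3, numpy 2.4.6 and matplotlib 3.10.9 under Python 3.11.15.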

Additional observations from a re-analysis of the deposited data

How the results depend on the processing

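Each of the 18 member differences was recomputed under 7 alternatives and each of the 3 neutrophil list counts under 11. Of the member values 106 moved by less than 1.5-fold and 20 by more, and no value past 2-fold changed sign. Part of the 106 was fixed beforehand. Each member had 1 listed probe set, so the choice of probe set could not move it, and raising dim values could move only Camp. S100a9 in depleted against tumour lung fell under 2-fold, to 0.94 with quantile normalization and 0.90 with the control difference removed. With the control difference removed, tumour against wild type lung gave 1.82 for S100a8, 2.15 for S100a9, -0.15 for Ngp, 0.082 for Camp (between values too dim for an interpretable fold), -1.55 for Ltf and 2.92 for Lcn2. Depleted against wild type lung then gave 2.88, 3.03, 2.74, 3.75, -2.74 and 2.22 in the same order of genes, and this follows from the 1 amount subtracted. The authors' deposited tables gave log2 ratios for Ngp of 0.013 in tumour against wild type, 2.48 in depleted against tumour and 2.49 in depleted against wild type lung. For Camp the authors' deposited tables gave 0.79 in depleted against tumour and 1.39 in depleted against wild type lung, and the cause of these differences between the sources was not tested. After both arrays were floored at the 25th percentile, Camp was 0.032 in tumour against wild type, 2.85 in depleted against tumour and 2.88 in depleted against wild type lung. Of the list counts 31 stayed within 1.5 times. Raising dim values could not change any list count, because genes were already called on their bounds. The count of neutrophil genes higher in depleted than in tumour lung was 21 at 2-fold and 12 at 3-fold, and the count higher in depleted than in wild type lung was 33 and, with the control difference removed, 21. No paired analysis was possible because each group had 1 array. Dim intensities leave Camp with lower bounds. In both comparisons of depleted lung the choice of source moved Camp further than raising dim values did. In tumour against wild type lung raising dim values moved it further, to 0.032, where the deposited ratio gave 0.59.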

Other observations

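Of 12 antimicrobial protein genes outside neutrophil granules 6 were named. In depleted against tumour lung 3 were past 2-fold upwards, 2 were past it downwards and 1 was within it, beside 29.5% higher and 27.5% lower among all named genes. The epithelial defensin gene Defb3 had an intensity of 20.6 in depleted, 2299 in tumour and 16.7 in wild type lung, so it was bright on the tumour array alone. Reg3g, an antibacterial lectin gene, had 1818 in depleted, 19.1 in tumour and 1614 in wild type lung, and was dim where S100a8 was well above wild type. Bpifa1, a secreted airway protein gene, had 3080 in depleted, 17.2 in tumour and 13617 in wild type lung. Hamp, encoding the iron hormone hepcidin, had 222 in depleted, 82.2 in tumour and 1156 in wild type lung. Saa3, an acute phase gene, had 12239 in depleted, 14812 in tumour and 145 in wild type lung, an order shared with Lcn2.

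Within the S100 family, 5 of 17 genes on the list were named. S100a4, expressed by many motile cells, had 6645 in depleted, 4530 in tumour and 1647 in wild type lung. S100a14, an epithelial member, had 51.5 in depleted, 256 in tumour and 104 in wild type lung, and S100b had 55.8 in depleted, 142 in tumour and 75.9 in wild type lung. The order of S100a8 was thus shared by S100a4 and not by S100a14 or S100b.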
